A study of Mus musculus with 10 samples.

Results

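The genes described here are those whose symbols name subunits of the oxidative phosphorylation system, nuclear and mitochondrial. They were chosen by symbol (Nduf with a, b, c, s or v and a digit, Sdha to Sdhd, Uqcr, Cox4 to Cox8, Atp5, and the Nd, Co, Cytb and Atp genes of the mitochondrial genome). The rule found 91 of the 20974 genes in the table, of which 81 are nuclear and 10 mitochondrial. By symbol alone, 37 nuclear genes fall under complex I, 4 under complex II, 8 under complex III, 15 under complex IV and 17 under complex V. Ndufa4 and Ndufa4l2 carry a complex I name, although NDUFA4 is now regarded as a subunit of complex IV. The 17 also take in Atp5s and Atp5sl, whose symbols do not show that they encode subunits of complex V. The mitochondrial genes were 6 of complex I, 1 of complex III and 3 of complex IV. mt-Atp6, mt-Atp8, mt-Nd4l, Cox6a2, Cox8b and Cox8c were not among the genes found by the rule, so complex V had no mitochondrial member here.

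RNA-sequencing had been done on 10 single mouse embryos at E7.5, 5 Rreb1-/- and 5 Rreb1+/+, collected from matings between Rreb1+/- animals. Rreb1 encodes a zinc finger transcription factor, and its mutant allele is a CRISPR-Cas9 deletion of most of the coding part of exon 6. The study made a pair of lines with deletions of unequal size and combined their data. The labels do not say which line each of the 5 Rreb1-/- embryos came from. The strain label is CD1, and the methods give a mixed background of CD-1, 129 Sv, C57BL6 and C2J, shared by both genotypes. No agent was given, and the whole embryo was used after its parietal endoderm had been taken for genotyping, so each library mixes epiblast, mesoderm, visceral endoderm and extraembryonic ectoderm. In such bulk samples fewer cells of a type and less RNA per cell cannot be told apart. The study also reports mutant embryos as smaller than wild-type littermates from E7.5 and delayed in development. The part of this delay in the values was not tested.

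Oxidative phosphorylation couples the flow of electrons along complexes I to IV of the inner mitochondrial membrane to ATP synthesis by complex V. Most subunits are encoded in the nucleus, translated in the cytosol and imported, while the mitochondrial genome encodes core subunits of every complex except complex II. Epiblast cells around gastrulation rely strongly on glycolysis, and mitochondria mature as tissues differentiate.

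The libraries held 31467767 to 35446574 counted reads in Rreb1-/- embryos and 33317560 to 35786876 in Rreb1+/+ embryos. On the first principal component of all genes, replicates 5 and 6 of both genotypes stood apart from replicates 2 to 4, and the labels give no batch. Values are reads per gene divided by a size factor for each library, called normalized counts. A mean of 15 or more in either genotype was reached by 15603 genes, of which 486 were higher and 179 lower in Rreb1-/- embryos (limma, adjusted p under 0.05), which is 4.26% of genes tested, 3.11% higher and 1.15% lower. Rreb1 itself averaged 5010.0 ± 718 in the mutants against 2644 ± 211 in the wild-type embryos (n = 5, SD), and since the deletion removes part of a single exon, a sum over all exons does not check it. Of 16 visceral endoderm markers 2 (Afp and Apoa4) were called lower, though Apoa4 was called in 2 of the 10 fits that each left out an embryo, of 9 parietal endoderm markers 1 (Plat) was called higher, and none of 10 epiblast, 12 mesoderm, 11 primitive blood and 11 trophoblast markers was called, although 10 of the 11 blood markers had a negative log2 fold change (median -1.09). The summed visceral endoderm markers ranged from 286173 to 422090 in Rreb1-/- and from 363168 to 393847 in Rreb1+/+ embryos, those of parietal endoderm from 56284 to 117757 and from 58170.2 to 74528 in the same order, and those of primitive blood from 2314 to 7261 and from 3824 to 17146. Values were found for 11 of 12 listed primitive blood markers and for 9 of 10 listed parietal endoderm markers. None of the markers found was at 0 in all embryos, which says nothing of those not found. The part of cell composition in the values below was not tested.

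Among the oxidative phosphorylation genes, 1 of the 87 tested was called, the complex I gene Ndufs6, which was higher in Rreb1-/- embryos. The tested members were 80 of the 81 nuclear genes and 7 of the 10 mitochondrial genes, and the share of nuclear members called, 1.25%, stood beside the 4.26% of all genes. The nuclear members had a median log2 fold change of 0.04 (Rreb1-/- over Rreb1+/+, range -0.28 to 0.68), against -0.02 over all genes tested. Of the 80 nuclear members 50 had a positive log2 fold change (62.5%, against 47.1% of all genes). This count rested on few embryos, since without Rreb1+/+ replicate 5 it was 39 of 80 with a median of -0.00, with replicates 2 to 4 alone 43 with a median of 0.01, and with replicates 5 and 6 alone 60 with a median of 0.10. With the Y-linked covariate it was 39. All 7 tested mitochondrial members had a positive log2 fold change, from 0.12 to 0.25 with a median of 0.19, and none was called by limma, edgeR or DESeq2. Their median was 0.22 within replicates 2 to 4 and 0.11 within replicates 5 and 6. At an unadjusted p under 0.05, 8 nuclear members lay higher and 1 lower, and 2 mitochondrial members lay higher, beside 18% of all genes (9.74% higher and 8.21% lower).

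**Figure D1:**
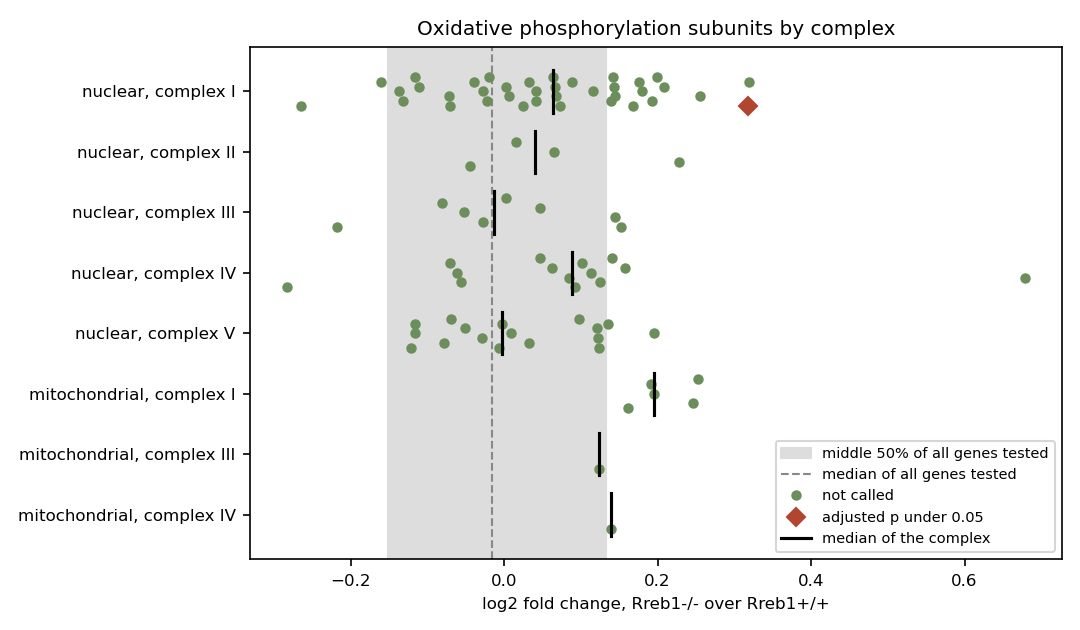
Log2 fold change (Rreb1-/- over Rreb1+/+, x axis) of each tested subunit gene, a point per gene, by genome and complex, with the median of each complex as a black bar; the vertical position within a complex has no meaning. Grey marks the middle 50% of all genes tested and the dashed line their median. Ndufs6, the diamond at 0.32, is the called member, and the 7 mitochondrial points lie between 0.12 and 0.25.

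Complex I, the NADH dehydrogenase that takes electrons from NADH, had 37 tested nuclear members, with 0.06 as their median log2 fold change. Ndufs6 encodes an accessory subunit next to the electron-input module. It had 2109.7, 2224, 2138, 2150.4 and 2323 normalized counts in Rreb1-/- embryos (replicates 2 to 6), against 1779.7, 1692, 1932, 1556 and 1837 in Rreb1+/+ embryos. The lowest Rreb1-/- embryo was above the highest Rreb1+/+ embryo, and the means differed by 24.4%, at 2189 ± 86.0 in Rreb1-/- against 1759 ± 143 in Rreb1+/+ embryos (n = 5 per genotype, SD). The log2 fold change was 0.32 ± 0.07 (SE), with a limma adjusted p of 0.0206 and an exact two-sided permutation p of 0.00794, the smallest that this design can give. Non-overlap of the genotypes was seen for 6.7% of all genes tested, and Ndufs6 was the only tested member with it. The call was lost without Rreb1+/+ replicate 3 (limma adjusted p = 0.0598). It was also lost with the Y-linked covariate (log2 fold change 0.26, limma adjusted p = 0.271). Within replicates 2 to 4 the log2 fold change was 0.26 (limma adjusted p = 0.183), and within replicates 5 and 6 it was 0.40 (adjusted p = 0.260).

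Ndufs6 lies on chromosome 13 (GRCm38, 73319838 to 73328542, minus strand), the chromosome of Rreb1, 35.4 Mb away. Of 562 tested genes on this chromosome 7.30% were called, against 4.26% of all genes. The chromosome carries 5 other members, and none of these was called. They are Ndufs4 (complex I), Sdha (complex II), Uqcrb and Uqcrfs1 (complex III) and Cox7c (complex IV). Uqcrfs1, the Rieske iron-sulphur protein, is the nearest to Rreb1, at 7.23 Mb, and averaged 3920.4 ± 189 in Rreb1-/- and 3998 ± 216 in Rreb1+/+ embryos (log2 fold change -0.03 ± 0.06, SE). Ndufs4, an accessory subunit whose loss in mice gives a Leigh-like disease, was looked at because of its position after its values were seen. It had 2735, 2275, 2581, 2466 and 2873 counts in Rreb1-/- and 2684, 1902, 2079.5, 1858 and 2380.5 in Rreb1+/+ embryos, so the genotypes overlapped (log2 fold change 0.26 ± 0.11, limma adjusted p = 0.240). The part of strain-specific sequence around the targeted locus was not tested.

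The promoter of Ndufs6 is shown because it is the called member, and those of Sdhb and Uqcrc1 because these genes, with the lowest p of complexes II and III, pointed in opposite directions. Each runs from 250 bases before to 50 bases after the transcription start (RefSeq, GRCm38.p6). Capitals mark GCGCATGC, the core of the site of NRF1, a regulator of nuclear genes for respiration, and CCGGAAG, a core of ETS factors such as GABPA, each on either strand.
Ndufs6, chr13:73328433-73328732, minus strand: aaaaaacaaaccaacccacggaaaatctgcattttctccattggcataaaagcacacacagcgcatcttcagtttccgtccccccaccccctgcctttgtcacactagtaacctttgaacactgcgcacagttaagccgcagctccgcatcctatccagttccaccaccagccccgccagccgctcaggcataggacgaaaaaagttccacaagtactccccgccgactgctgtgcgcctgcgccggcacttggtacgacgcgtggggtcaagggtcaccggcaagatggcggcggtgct
Sdhb, chr4:140961021-140961320, plus strand: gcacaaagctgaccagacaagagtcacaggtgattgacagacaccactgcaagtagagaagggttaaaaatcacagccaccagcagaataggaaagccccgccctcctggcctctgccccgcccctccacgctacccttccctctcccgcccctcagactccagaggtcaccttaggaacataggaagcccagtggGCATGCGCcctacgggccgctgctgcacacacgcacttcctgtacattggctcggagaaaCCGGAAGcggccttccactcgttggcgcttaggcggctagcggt
Uqcrc1, chr9:108936398-108936697, plus strand: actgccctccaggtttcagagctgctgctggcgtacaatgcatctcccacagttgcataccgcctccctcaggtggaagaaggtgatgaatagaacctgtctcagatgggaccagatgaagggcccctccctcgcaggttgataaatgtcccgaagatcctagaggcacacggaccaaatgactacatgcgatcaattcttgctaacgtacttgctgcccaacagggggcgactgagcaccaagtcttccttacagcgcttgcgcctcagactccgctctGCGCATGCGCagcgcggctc
The Sdhb window holds both motifs, the Uqcrc1 window holds GCGCATGC in both orientations, overlapping each other, and the Ndufs6 window holds neither. Promoters were matched by symbol for 65 of the 81 nuclear members. GCGCATGC stood in 10 of these 65 (15.4%), against 3.05% of 27025 genes, and CCGGAAG in 16 (24.6%), against 9.93%. The median log2 fold change was -0.05 in the 10 members with GCGCATGC and 0.06 in the 54 tested without it, and 0.05 in the 16 with CCGGAAG and 0.06 in the 48 without it. The median GC content of these groups was 55.1% with GCGCATGC and 49.5% without it, and 52.2% with CCGGAAG and 49.9% without it. Log2 fold change and GC correlated negatively across the 80 members (r = -0.27, a description). Over all genes tested this correlation was also negative (r = -0.13). The part of GC in these medians was not tested. A match of letters is a description and does not show binding.

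Among the other complex I genes, Ndufa12, an accessory subunit of the matrix arm, had 1459, 1592, 1368, 1178 and 1795 counts in Rreb1-/- and 1223, 1114, 1259, 1014 and 1274 in Rreb1+/+ embryos. Of the 5 Rreb1-/- embryos 4 lay above every Rreb1+/+ embryo, and the log2 fold change of 0.32 ± 0.11 did not pass (limma adjusted p = 0.157, exact permutation p = 0.0317). At the other end, Ndufs7, which carries the last iron-sulphur cluster before ubiquinone, had 794.7, 1558, 908, 1192 and 1619 in Rreb1-/- and 1129, 1296, 1935, 1089 and 1761 in Rreb1+/+ embryos (log2 fold change -0.26 ± 0.23). Its range within a genotype, from 795 to 1619 in Rreb1-/- and from 1089 to 1935 in Rreb1+/+ embryos, was wider than the difference between the means. Ndufv1, which binds NADH and flavin, was at -0.16 ± 0.09 on this scale (limma adjusted p = 0.404). The X-linked accessory subunits Ndufa1 and Ndufb11 had log2 fold changes of 0.06 ± 0.10 and 0.04 ± 0.13. Ndufa4, the most abundant nuclear member with a complex I name, averaged 7207 ± 606 in Rreb1-/- and 6373 ± 483 in Rreb1+/+ embryos (log2 fold change 0.18 ± 0.07, limma adjusted p = 0.229). Its paralogue Ndufa4l2, known as a hypoxia-induced gene, was at 68.2 normalized counts per kb of exon in Rreb1-/- and 72.7 in Rreb1+/+ embryos, against 5219 and 4615 for Ndufa4.

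**Figure D2:**
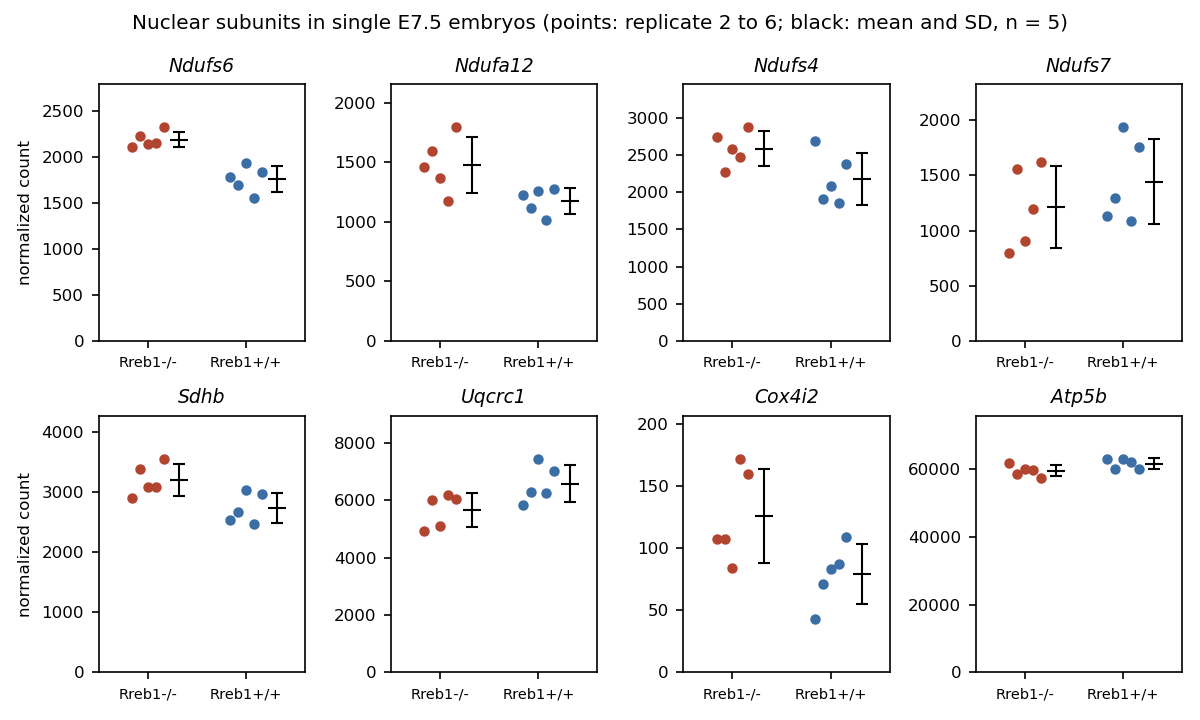
Normalized count (y axis, from 0) of 8 nuclear subunit genes in each embryo, Rreb1-/- left and Rreb1+/+ right, points in the order of replicates 2 to 6, with the mean and SD in black (n = 5). The genotypes are apart for Ndufs6 and overlap for the other 7 genes, and Ndufs7 spreads widely in both.

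Complex II, succinate dehydrogenase, is shared with the TCA cycle and is wholly nuclear, and none of its 4 genes was called. Sdhb, its iron-sulphur subunit, had 2900.2, 3386, 3088, 3079.7 and 3553 counts in Rreb1-/- and 2536, 2660.4, 3035, 2471 and 2972 in Rreb1+/+ embryos. Of the Rreb1-/- embryos 4 lay above every Rreb1+/+ embryo (log2 fold change 0.23 ± 0.08, limma adjusted p = 0.152, exact permutation p = 0.0397). Of 25 alternative fits 1 called Sdhb. That fit took the GC slope of each embryo, described below, as a covariate and was chosen after seeing the data. Its value was 0.29 and its limma adjusted p 0.0132. Sdha, the flavoprotein and the most abundant of the 4, averaged 10803 ± 695 in Rreb1-/- and 10325 ± 609 in Rreb1+/+ embryos. Sdhc and Sdhd, the membrane anchors, had log2 fold changes of -0.04 ± 0.06 and 0.02 ± 0.05.

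Complex III, the cytochrome bc1 complex, had 8 tested nuclear genes, none called, with -0.01 as their median log2 fold change. Uqcrc1, a core protein, had 4920, 5996, 5112, 6184 and 6031 counts in Rreb1-/- and 5845, 6299.6, 7445, 6242 and 7002 in Rreb1+/+ embryos. Of the Rreb1-/- embryos 2 lay below every Rreb1+/+ embryo (log2 fold change -0.22 ± 0.09, limma adjusted p = 0.217, exact permutation p = 0.0635), and it was the nuclear member that lay lower at an unadjusted p under 0.05. Uqcrh, the hinge protein, was at 0.15 ± 0.06 in log2 fold change (limma adjusted p = 0.231), and Uqcrb, a ubiquinone-binding subunit, 0.14 ± 0.09. Uqcrc2, the other core protein, was the most abundant and had 0.05 ± 0.06. Uqcr11 had -0.08 ± 0.22.

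Complex IV, cytochrome c oxidase, which reduces oxygen, had 14 tested nuclear genes, none called, with 0.09 as their median log2 fold change. Cox4i2, the isoform of subunit 4 known to be induced in hypoxic cells and in lung, had 107.0, 107.0, 83.9, 171.9 and 159.6 counts in Rreb1-/- and 43.2, 71.3, 83.1, 87.4 and 109.3 in Rreb1+/+ embryos. Its log2 fold change of 0.68 ± 0.27 was the largest among the members, with a limma adjusted p of 0.216 and an exact permutation p of 0.0714. The genotypes overlapped, and 2 Rreb1-/- embryos lay above every Rreb1+/+ embryo. Its widely expressed counterpart Cox4i1 had 5057 normalized counts per kb in Rreb1-/- and 5311 in Rreb1+/+ embryos, against 160 and 100.05 for Cox4i2.

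The same order of isoforms held along the rest of complex IV. Per kb of exon, Cox7a1, the heart and muscle isoform of subunit 7a, had 88.4 in Rreb1-/- and 110 in Rreb1+/+ embryos, against 5000.1 and 4705 for the widely expressed Cox7a2. Cox7a2l, a factor of respiratory supercomplexes, had 1539 in Rreb1-/- and 1604 in Rreb1+/+ embryos. Cox6b2, best known from testis, had 142 and 125 per kb, against 8523 and 8171 for Cox6b1, in the same order of genotypes. In fold change none of them passed, from -0.28 ± 0.20 for Cox7a1, the lowest of the complex, to 0.16 ± 0.17 for Cox6b2. Cox6a1, Cox8a and the X-linked Cox7b had log2 fold changes of 0.10 ± 0.14, 0.09 ± 0.09 and 0.12 ± 0.07. Cox7b2, the only nuclear member under the filter, had 0 to 3.7 counts in Rreb1-/- and 0 to 2.9 in Rreb1+/+ embryos.

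Complex V, the ATP synthase, had the most abundant nuclear members. The median log2 fold change over the 17 tested genes placed in it by symbol was -0.00. None was called, and none was at an unadjusted p under 0.05. Atp5b, the catalytic beta subunit, had 61587, 58525.5, 59930.4, 59794 and 57241 counts in Rreb1-/- and 62894, 59879.5, 62981, 61959.9 and 60038 in Rreb1+/+ embryos. Its highest embryo was 1.10 times its lowest, the narrowest range of the nuclear members (log2 fold change -0.05 ± 0.04). The c-ring genes Atp5g1, Atp5g2 and Atp5g3, which encode the same mature protein, had 644, 769 and 4746 normalized counts per kb in Rreb1-/- and 706, 808 and 5149 in Rreb1+/+ embryos, and log2 fold changes of -0.12 ± 0.11, -0.07 ± 0.10 and -0.12 ± 0.08. Values per kb divide by all annotated exon bases, here 4912 for Atp5g1 and 1675 for Atp5g2. Before that division Atp5g1 was the higher, at 3164 against 1288 in Rreb1-/- and 3468 against 1354 in Rreb1+/+ embryos. Atp5h, of the peripheral stalk, had 0.14 ± 0.07. Atp5l, subunit g, had 131 to 227 counts in Rreb1-/- and 126.5 to 198 in Rreb1+/+ embryos (0.20 ± 0.19). Of its 50-base transcript windows 84.8% are also found in another annotated gene, so that its level is uncertain. At least 10% of windows are shared in 24 of the 81 nuclear members, and none in 36. The share was 43.4% in Uqcrb, 38.3% in Atp5g2, 36.9% in Atp5h, 26.2% in Ndufa12, 24.2% in Uqcrc2 and 8.61% in Ndufs6. The part of shared sequence in these levels was not tested.

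The mitochondrially encoded genes were the most abundant members. Their summed normalized counts were 983955, 738317, 898942, 709985 and 857588 in Rreb1-/- and 856573, 730484, 652130, 741471 and 713083 in Rreb1+/+ embryos (replicates 2 to 6). The summed nuclear members were 359004, 363432, 355589, 348729 and 378750 in Rreb1-/- and 364199, 342080, 378266, 337448 and 368342 in Rreb1+/+ embryos. Rreb1-/- replicates 2, 4 and 6 and Rreb1+/+ replicate 2 had the highest mitochondrial sums, whereas the nuclear sums of the genotypes interleaved. As a share of all counted reads the mitochondrial members took 2.16% to 2.88% in Rreb1-/- and 1.93% to 2.49% in Rreb1+/+ embryos, and the nuclear members 1.05% to 1.14% and 0.993% to 1.12%. Libraries were made from polyadenylated RNA, so these are levels of captured transcripts and do not count mitochondrial genomes.

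mt-Nd2, a membrane subunit of complex I, had 105804, 84594, 99614, 79108 and 101737 counts in Rreb1-/- and 92518, 78881, 66486, 78107 and 78745 in Rreb1+/+ embryos. Of the Rreb1-/- embryos 3 lay above every Rreb1+/+ embryo (log2 fold change 0.25 ± 0.10, limma adjusted p = 0.222, exact permutation p = 0.0476). mt-Nd1 had 182806, 130483, 177312, 134614 and 158144 in Rreb1-/- and 159338, 132874, 111839, 125099 and 129683 in Rreb1+/+ embryos (0.25 ± 0.12). mt-Nd6, the only protein gene transcribed from the light-strand promoter, averaged 24305 ± 2897 in Rreb1-/- and 21168 ± 1724 in Rreb1+/+ embryos (0.20 ± 0.09, limma adjusted p = 0.261). Whether the counting used strand was not given, and mt-Nd6 (M, 13552 to 14070) overlaps the end of mt-Nd5 (11742 to 13565) on the opposite strand. The genes mt-Nd4, mt-Nd5, mt-Cytb and mt-Co1 had log2 fold changes of 0.19 ± 0.09, 0.16 ± 0.09, 0.12 ± 0.10 and 0.14 ± 0.11. All of these genes overlapped between genotypes, and neighbouring genes are cut from shared precursors, so they do not vary independently. Per kb, mt-Co1 and mt-Nd1 were highest, at 168660.0 and 163711 in Rreb1-/- and 152296 and 137687 in Rreb1+/+ embryos, and mt-Nd4 was lowest of the tested genes, at 39642 and 34614.

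**Figure D3:**
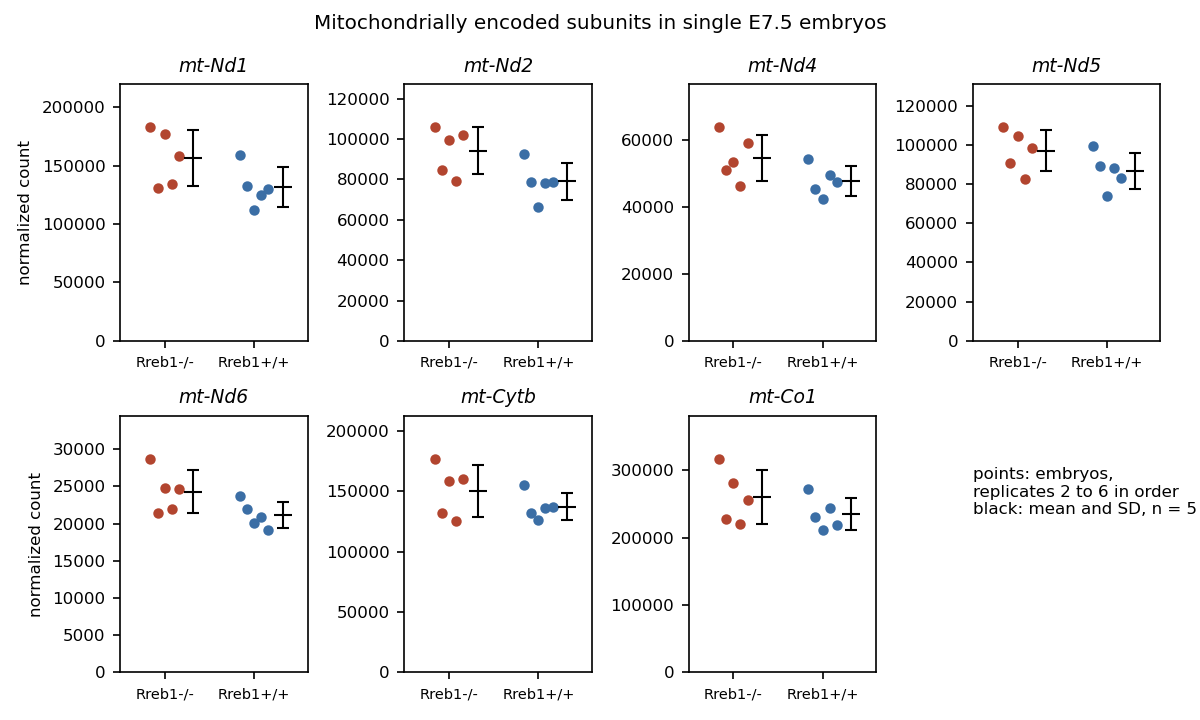
Normalized count (y axis, from 0) of the 7 tested mitochondrial genes in each embryo, Rreb1-/- left and Rreb1+/+ right, points in the order of replicates 2 to 6, with the mean and SD in black (n = 5). In each gene Rreb1-/- replicate 2 is the highest embryo, and the genotypes overlap.

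mt-Co2, mt-Co3 and mt-Nd3 were close to 0 in every embryo and cannot be read as levels. mt-Co2 had 11.7, 0, 1.1, 1.9 and 1.0 counts in Rreb1-/- and 1.0, 0, 0, 1.9 and 0 in Rreb1+/+ embryos. mt-Co3 had 0 to 5.3 and mt-Nd3 0 to 7.4 in Rreb1-/- embryos, and 0 to 2.0 and 0 to 3.8 in Rreb1+/+ embryos. These are genes with near-identical copies in a segment of mitochondrial sequence on chromosome 1, and reads that map equally well to both places may be left out of a count. Of the 50-base windows of their transcripts, 635 of 635 in mt-Co2, 734 of 735 in mt-Co3 and 293 of 299 in mt-Nd3 are also found in another annotated gene. In mt-Nd4 the share is 62.2% and in mt-Co1 51.1%, so their levels are uncertain too, in mt-Nd2 and mt-Nd5 it is 8.19% and 7.61%, and in mt-Nd1, mt-Nd6 and mt-Cytb it is 0. How reads with several positions were counted is not given in the sources used here, and its part in these values was not tested.

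The first 90 bases of mt-Co2 and mt-Nd3 and of their chromosome 1 copies Gm28661 and Gm28438 are shown because they make the likeness plain (GENCODE M21 transcripts, positions counted from the first base, differing bases in capitals).
mt-Co2: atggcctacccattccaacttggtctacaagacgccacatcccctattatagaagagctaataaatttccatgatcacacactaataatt
Gm28661: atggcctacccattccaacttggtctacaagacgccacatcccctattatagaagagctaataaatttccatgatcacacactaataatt
mt-Nd3: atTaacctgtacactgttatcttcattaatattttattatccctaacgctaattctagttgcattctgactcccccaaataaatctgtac
Gm28438: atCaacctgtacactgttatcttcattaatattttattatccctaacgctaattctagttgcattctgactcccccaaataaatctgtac
Gm28661 is identical to mt-Co2 over all 681 aligned bases, and Gm28438 differs from mt-Nd3 by T3C alone in 345. Gm28437 matches mt-Co3 over 783 of 783 bases and Gm28439 matches mt-Nd4 over 876 of 876. The copies themselves were also near 0, with Gm28661 at 0 to 6.2 and Gm28438 at 0 to 11.2 in Rreb1-/- embryos, against 0 to 1.0 and 0 to 10.6 in Rreb1+/+ embryos. Gm29216, which matches mt-Co1 over 486 of 492 bases, was at 384 in Rreb1+/+ replicate 5 and at 0 to 3.8 in the other 9 embryos, while mt-Co1 in that embryo (244061) lay within the range of its genotype.

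**Figure D4:**
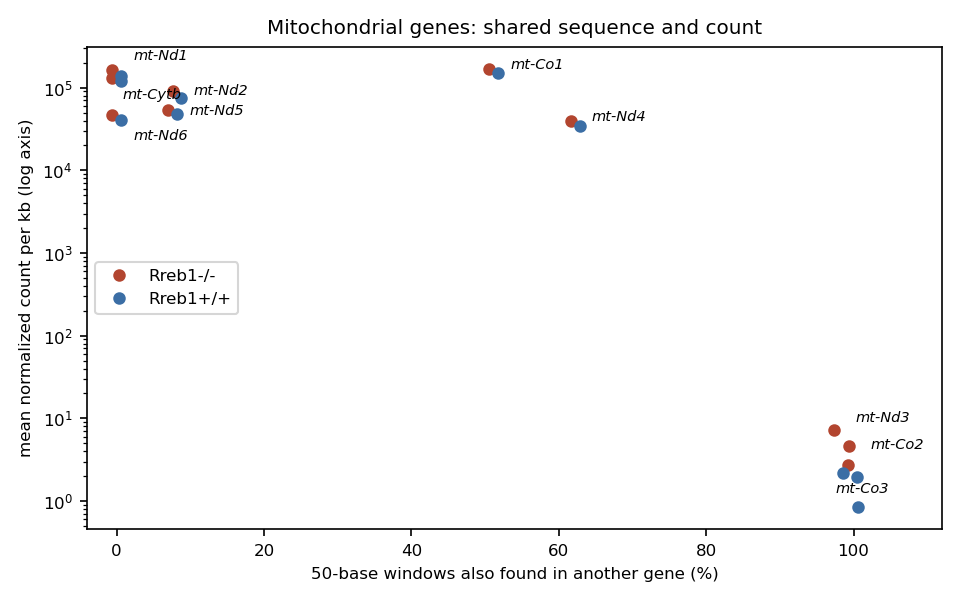
Mean normalized count per kb of exon (y axis, log scale) of the 10 mitochondrial genes in each genotype, against the percent of their 50-base windows also found in another annotated gene (x axis, points shifted by 0.6 so that both genotypes show). The 3 genes at 98.0% to 100% lie below 10 per kb, and the other 7 lie at 34614 per kb or more.

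Embryos differed in how their counts followed the GC content of a gene, and in some of them the members shifted with it. The slope of deviation on GC over all genes (log2 units per 10 percentage points) was -0.28, 0.09, -0.19, 0.07 and 0.09 in Rreb1-/- replicates 2 to 6, and -0.12, 0.06, 0.19, -0.05 and 0.14 in Rreb1+/+ replicates 2 to 6. In the 27 nuclear members of highest GC (above 53.3%), the median deviation from each gene's mean was -0.25 and -0.10 in Rreb1-/- replicates 2 and 4, against 0.21 and 0.17 in Rreb1+/+ replicates 4 and 6. All genes in that range moved alike, with -0.24 and -0.15 in these Rreb1-/- embryos and 0.17 and 0.12 in these Rreb1+/+ embryos. The 27 nuclear members of lowest GC (up to 48.6%) were at 0.13 and 0.05 in these Rreb1-/- embryos. In these Rreb1+/+ embryos they stayed near their means, at -0.01 and 0.01. All genes in that lower range were at 0.13 and 0.09 in these Rreb1-/- embryos, and at -0.09 and -0.05 in these Rreb1+/+ embryos. The 7 tested mitochondrial genes, at 34.1% to 39.9% GC, went the other way from the members of highest GC. They were at 0.33 and 0.19 in Rreb1-/- replicates 2 and 4, against -0.26 and -0.14 in Rreb1+/+ replicates 4 and 6. In 2 embryos the mitochondrial genes had the sign of the slope, Rreb1-/- replicate 6 (0.15 at a positive slope) and Rreb1+/+ replicate 5 (-0.07 at a negative slope). The nuclear members of these embryos deviated alike in all classes of GC. In Rreb1-/- replicate 6 they deviated by 0.16, 0.14 and 0.14 in the classes of low, middle and high GC, where all genes were at -0.02, -0.01 and 0.07. In Rreb1+/+ replicate 5 they deviated by -0.14, -0.16 and -0.17, where all genes were at 0.02, 0.02 and -0.04. In Rreb1+/+ replicate 3 the members were at -0.13, -0.10 and -0.05 and all genes at -0.04, 0.01 and 0.06.

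Of the 80 tested nuclear members 28 varied by at least 1.5 times between the lowest and highest embryo, and 16 of these 28 are among the 27 of highest GC. Uqcrq, a small subunit of complex III, had the widest range after Cox4i2, from 1230.2 to 3638 in Rreb1-/- and from 1529.8 to 3395 in Rreb1+/+ embryos. It was chosen after its values were seen. The first component of the nuclear members held 55.1% of their variance, and its loadings correlated with GC across the 80 genes (r = 0.50, a description, since the genes share libraries). With the GC slope as a covariate, an alternative chosen after seeing the data, the median log2 fold change of the mitochondrial members was 0.13 and that of the nuclear members 0.09. Without Rreb1-/- replicates 2 and 4, likewise chosen after seeing the data, these were 0.10 and 0.09, 6 of the 7 mitochondrial members had a positive log2 fold change, and Ndufs6 had 0.35 (limma adjusted p = 0.0620).

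**Figure D5:**
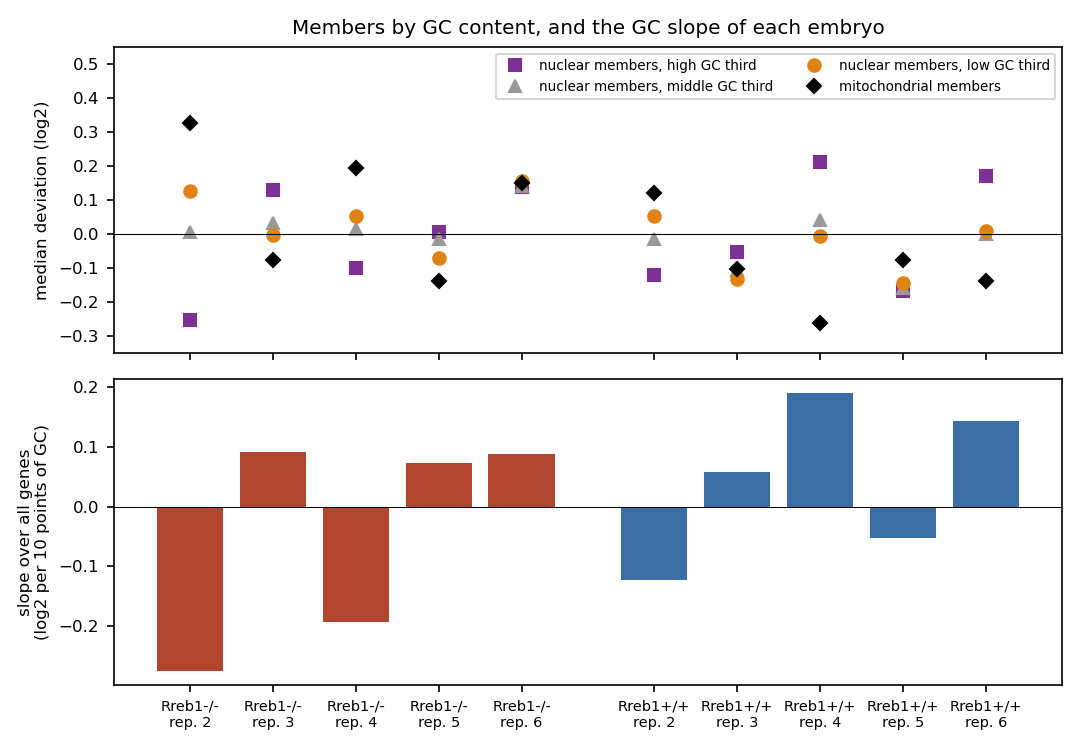
Top, median deviation (log2, from each gene's mean over the 10 embryos) of the nuclear members in 3 classes of GC content and of the mitochondrial members in each embryo, Rreb1-/- left and Rreb1+/+ right. Bottom, slope of deviation on GC over all genes in the same embryos, lowest at -0.28 in Rreb1-/- replicate 2 and highest at 0.19 in Rreb1+/+ replicate 4.

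The genes around the complexes were described by lists, whose counts stand beside 3.11% of all genes called higher and 1.15% called lower. Of 44 assembly factors 1 was called, Cox15, which makes heme a for complex IV, lower at 1784 ± 67.0 in Rreb1-/- and 2074 ± 67.2 in Rreb1+/+ embryos (log2 fold change -0.22 ± 0.05, limma adjusted p = 0.0394). Its call was lost with the replicate block (adjusted p = 0.0538). Of 29 genes of mitochondrial DNA maintenance and transcription 2 were called, both lower. They were Top1mt, the mitochondrial topoisomerase (-0.51 ± 0.12), and Elac2, which trims the 3′ ends of tRNAs (-0.31 ± 0.06). Of 79 mitochondrial ribosome genes 1 was called, Mrps18b (-0.25 ± 0.05), and of 23 electron carriers and adenine nucleotide exchange genes and 12 regulators of biogenesis none was.

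In the TCA cycle and pyruvate dehydrogenase list 1 of 20 genes was called, Idh2, the mitochondrial NADP-dependent isocitrate dehydrogenase, lower at 3663 ± 251.7 in Rreb1-/- and 4526 ± 284 in Rreb1+/+ embryos (-0.31 ± 0.06, limma adjusted p = 0.0211). The list's median was -0.08, with 3 of 20 log2 fold changes positive. In glycolysis 3 of 20 genes were called, all higher, beside the 3.11% of all genes, and the call of Ldhb was kept in 2 of 10 fits that each left out an embryo. Pfkp, a phosphofructokinase that also lies on chromosome 13, had 3666, 3445, 3594.5, 3699 and 3306 counts in Rreb1-/- and 1690.5, 1858, 1827, 1729 and 1971 in Rreb1+/+ embryos, with no overlap (0.96 ± 0.06, limma adjusted p = 1.22e-05). Hk1, a hexokinase that binds mitochondria, averaged 1654 ± 249 in Rreb1-/- and 1089 ± 127 in Rreb1+/+ embryos (0.60 ± 0.11, limma adjusted p = 0.0116). Ldhb, a lactate dehydrogenase subunit, averaged 3122 ± 430 and 2187 ± 371 in the same order (0.52 ± 0.13, limma adjusted p = 0.0414). The median of the glycolysis list was -0.01, with 10 of 20 log2 fold changes positive. When each embryo was left out in turn, Pfkp and Hk1 were called in all 10 fits and Elac2 in 8, whereas the calls were lost in most of the 10 fits, without embryos of either genotype, for Cox15 (called in 1), Top1mt (3), Idh2 (4) and Mrps18b (4).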

How the data were processed

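Whole E7.5 mouse embryos without the parietal endoderm were sequenced by the authors from polyadenylated RNA (TruSeq stranded kit, paired 50-base reads). Reads were aligned with STAR, handled with Picard, counted with HTSeq and normalized with DESeq; versions, build and gene models were not given in the sources used here. The deposited values are a signal, the reads per gene divided by a DESeq size factor. Dividing by each column's smallest step gave whole reads for 100% of values (tolerance 0.1), which served for depth, edgeR and DESeq2 only. Depth was 31467767 to 35786876 counted reads, and intervals from depth would cover counting error only.

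The genotypes were compared by limma 3.58.1 in R 4.3.3, on log2 of the normalized count + 1, for the 15603 genes that averaged 15 or more in either of them (variance trend, no covariate, Benjamini-Hochberg adjustment over all of them, threshold 0.05); a fold change on this scale understates that of low genes. Single members also had an exact two-sided permutation test. The labels name separate embryos as replicates. The members and lists were chosen with earlier results of these data known. Named members were those called, all mitochondrial genes, the highest mean and 2 largest fold changes per direction in each nuclear complex, isoform families, those under the filter, X-linked members and those within 20 Mb of Rreb1; up to 4 called genes were named per other list. Positions and GC came from GENCODE M21 (20884 genes matched), promoters from RefSeq.

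Same-numbered embryos of the genotypes deviated together (correlation 0.253 to 0.459 over 5 pairs), but only 3 of 10 embryos were most like their own number. A pairing by number, beyond the separation of replicates 5 and 6 from 2 to 4, is therefore not shown by the data. Alternatives were edgeR 4.0.16, DESeq2 1.42.0, TMM factors, the nuclear read total, quantile normalization, pseudocounts of 0.5 and 5, no filter, a minimum mean of 50, thresholds of 0.01 and 0.1, the replicate block, a Y-linked covariate, replicates 2 to 4 or 5 and 6 alone, leaving out each embryo, and, chosen after seeing the data, a GC slope covariate and leaving out Rreb1-/- replicates 2 and 4. The limma and edgeR steps were also run on simulated counts, drawn independently with no replicate set, GC slope or sex difference. That run cannot speak to such effects in these embryos.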

Additional observations from a re-analysis of the deposited data

Results flagged for a closer look

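Embryos far from the others of their genotype were looked for in 100 groups of 5 values (Dixon's criterion, which chance meets in about 1 of 20 groups), and 6 were found. Atp5g3 was highest in Rreb1-/- replicate 6, at 11999 normalized counts, with the other Rreb1-/- embryos at 9661 to 10132. Cox8a was highest in the same embryo, at 4715, with the others at 3456 to 3816. Cox7a2 was lowest in Rreb1-/- replicate 5, at 3983, with the others at 4782 to 4983. The remaining 3 were in genes near 0, with mt-Co2 at 11.7 in Rreb1-/- replicate 2, mt-Co3 at 0 in Rreb1+/+ replicate 5 and mt-Nd3 at 3.84 in Rreb1+/+ replicate 2.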

How the results depend on the processing

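Of 27 alternatives, none called a mitochondrial member, and none called a nuclear member lower. Nuclear members called higher were 1, and 2 with the GC slope covariate (Sdhb added, 0.29). They were 0 with the Y-linked covariate, replicates 2 to 4 alone, replicates 5 and 6 alone, without Rreb1-/- replicates 2 and 4, and at a threshold of 0.01, and 0 to 1 when each embryo was left out. Ndufs6 kept its sign, at 0.26, 0.26, 0.40 and 0.35 in the first 4 of these. The Y-linked covariate gave medians of 0.44 for mitochondrial and -0.01 for nuclear members. It left Rreb1 at a log2 fold change of 0.85 (0.91 without it) and a limma adjusted p of 0.0814. How Y-linked counts fell across the genotypes is not shown here, and the part of sex in the values was not tested. The nuclear median was -0.00 without Rreb1+/+ replicate 5 and lay between -0.01 and 0.10 over all fits, the mitochondrial median between 0.10 and 0.44. Of all genes, 486 higher became 785 with DESeq2, 83 with the Y-linked covariate, 85 with replicates 5 and 6, 277 without Rreb1-/- replicates 2 and 4, 229 at a threshold of 0.01, and 342 to 436 without 1 embryo. The 179 lower became 428 with DESeq2, 24 with the Y-linked covariate, 21 with replicates 5 and 6, 94 without Rreb1-/- replicates 2 and 4, 55 and 352 at thresholds of 0.01 and 0.1, and 95 to 207 without 1 embryo, at most 113 without Rreb1+/+ replicates 3, 4, 5 or 6 or Rreb1-/- replicate 4. With the replicate block, which pairs embryos by number, 716 genes were higher and 356 lower, and it changed no call of a member. The cause of these shifts was not tested. Of 1079 values of single members that passed in neither fit, 38 had the opposite sign. Smaller groups leave fewer embryos to estimate the spread.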

Other observations

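The ribosomal RNAs of the mitochondrial genome, which the rule does not take in, were also captured. mt-Rnr1 had 27029, 13246.5, 18987.5, 14663 and 20356 normalized counts in Rreb1-/- embryos and 15755, 14276, 11869.8, 15156 and 9923 in Rreb1+/+ embryos (log2 fold change 0.47 ± 0.19, SE, limma adjusted p = 0.225, exact permutation p = 0.0714). Of the Rreb1-/- embryos 3 lay above every Rreb1+/+ embryo. mt-Rnr2 averaged 31994 ± 7445 in Rreb1-/- against 27765 ± 4970.1 in Rreb1+/+ embryos (n = 5, SD), with a log2 fold change of 0.19 ± 0.16. With the GC slope covariate mt-Rnr1 had 0.32 and mt-Rnr2 0.09.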
